A study of Mus musculus with 6 samples.

Results

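The genes described here were 10 nuclear genes that control the transcription and replication of mitochondrial DNA: *Ppargc1a*, *Ppargc1b*, *Esrra*, *Nrf1*, *Gabpa*, *Tfam*, *Tfb1m*, *Tfb2m*, *Polrmt* and *Polg*. They were taken by gene symbol, and all 10 were found among the 20788 genes listed in at least 1 library. RNA was sequenced from Tyr-H and Tyr-L cells, with 3 libraries of each, and both are subclones of B16, a melanoma line of C57BL/6 mice. Tyr-H cells are labelled as having high tyrosinase activity and Tyr-L cells as having low activity, and both were grown in the same low-glucose DMEM with serum. The study raised single clones and grouped them by their use of tyrosine, but does not say how many clones each group stands for or whether the 3 libraries came from separate cultures, so the p-values measure the spread between these libraries only.

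Mitochondrial DNA is transcribed by its own RNA polymerase, POLRMT, which needs the DNA-packing factor TFAM and the initiation factor TFB2M, and it is copied by the polymerase POLG. The genes for these proteins lie in the nucleus and are activated by the transcription factors NRF1 and GABP and by the nuclear receptor ERR-alpha, which the coactivators PGC-1-alpha and PGC-1-beta bind and strengthen. In melanoma, *Ppargc1a* is a known target of MITF, the master transcription factor of melanocytes, which ties mitochondrial respiration to the melanocyte lineage.

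Expression is given in FPKM, fragments per kilobase of transcript and per 1000000 mapped fragments, as the authors deposited it. Tyr-H and Tyr-L cells were compared on log2(FPKM + 0.1) with limma. The 14336 genes that averaged 0.1 FPKM or more were tested, and adjusted p-values are over all of these. A gene is said to rise or fall in Tyr-H cells where the adjusted p was 0.05 or less. It is called where its log2 fold change was also at least 1 in size. The libraries listed 16813 to 17413 genes, and the steps between their lowest values put the depth at about 19.4 to 22.2 times 1000000 fragments. By that estimate the members' values rest on about 94 fragments, in the thinnest *Ppargc1b* library, to about 3900 in the deepest *Polg* library. Of 9 melanocyte markers all were listed in every library, summing to 8628 to 8955 FPKM in Tyr-L libraries and to 6766 to 7393 FPKM in Tyr-H libraries. Of these 6 fell, against 39.9% of all tested genes, and 4 were lower after median ratio scaling, without *Mlana* (adjusted p = 0.062) and *Tyrp1* (adjusted p = 0.23), while *Tyr*, the tyrosinase gene, was called higher in Tyr-H cells, with 10.7, 9.52 and 9.80 against 23.8, 20.6 and 19.7 FPKM, and *Gpnmb* rose (log2 fold change 0.12). In bulk RNA, fewer cells of a type and less RNA per cell cannot be told apart. Of 7 leukocyte markers 2 were listed, at a summed 3.06 to 4.45 FPKM, and *Ptprc*, *Cd3e*, *Adgre1*, *Itgam* and *Csf1r* in no library, while the endothelial, fibroblast and epithelial lists summed to at most 1.19 FPKM.

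Promoter windows of RefSeq on GRCm38.p6, from 250 bases before to 50 after a start site, were found for 9 of the 10 genes. The 5 printed here are those of the coactivator gene that MITF is known to act on, of the receptor gene that rose, and of 3 genes of the transcription apparatus, read 5′ to 3′ on the gene's strand. Capitals mark matches on either strand to the MITF M-box (TCATGTG), the NRF1 core (GCATGCGC), the NRF1 palindrome (GCGC, any base, then TGCGC) or the GABP core (CCGGAAG). The core and the palindrome can overlap.
*Ppargc1a*, chr5:51567676-51567975, minus strand: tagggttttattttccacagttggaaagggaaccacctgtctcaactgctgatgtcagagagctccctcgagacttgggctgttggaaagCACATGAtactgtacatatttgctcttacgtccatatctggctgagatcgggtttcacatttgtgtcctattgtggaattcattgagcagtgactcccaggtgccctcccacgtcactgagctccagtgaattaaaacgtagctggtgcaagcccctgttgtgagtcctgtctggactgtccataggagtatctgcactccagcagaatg
*Esrra*, chr19:6921759-6922058, minus strand: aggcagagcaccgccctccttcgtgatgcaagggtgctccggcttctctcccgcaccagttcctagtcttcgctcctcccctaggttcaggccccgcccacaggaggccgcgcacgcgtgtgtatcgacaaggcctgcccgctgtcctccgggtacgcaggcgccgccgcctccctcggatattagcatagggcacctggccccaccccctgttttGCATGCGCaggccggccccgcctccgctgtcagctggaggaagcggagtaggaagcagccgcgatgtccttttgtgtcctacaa
*Tfam*, chr10:71237995-71238294, minus strand: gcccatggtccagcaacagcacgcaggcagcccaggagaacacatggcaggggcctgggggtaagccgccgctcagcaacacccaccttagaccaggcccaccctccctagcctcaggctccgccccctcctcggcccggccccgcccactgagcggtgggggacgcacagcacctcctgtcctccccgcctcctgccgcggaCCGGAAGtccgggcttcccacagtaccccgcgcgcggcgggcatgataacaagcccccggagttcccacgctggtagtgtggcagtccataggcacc
*Tfb2m*, chr1:179546227-179546526, minus strand: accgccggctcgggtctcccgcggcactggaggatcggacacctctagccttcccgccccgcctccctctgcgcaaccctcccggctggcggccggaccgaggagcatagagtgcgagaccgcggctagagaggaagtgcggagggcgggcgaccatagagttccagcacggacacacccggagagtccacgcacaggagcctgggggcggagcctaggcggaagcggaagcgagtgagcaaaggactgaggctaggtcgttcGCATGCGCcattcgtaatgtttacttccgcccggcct
*Polrmt*, chr10:79746532-79746831, minus strand: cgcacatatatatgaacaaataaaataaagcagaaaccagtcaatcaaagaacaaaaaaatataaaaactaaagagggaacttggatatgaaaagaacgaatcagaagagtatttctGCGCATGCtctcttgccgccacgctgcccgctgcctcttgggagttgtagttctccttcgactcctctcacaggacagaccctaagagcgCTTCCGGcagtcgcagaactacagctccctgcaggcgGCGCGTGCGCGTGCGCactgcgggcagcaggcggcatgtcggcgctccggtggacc

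The M-box in the *Ppargc1a* window lies on the opposite strand at positions 91 to 97, counted from 1 at the 5′ end with the start site after position 250, and 3.77% of all 32851 windows hold one. The NRF1 core was found in the windows of *Esrra*, *Tfb2m* and *Polrmt* and is held by 2.71% of all windows. The palindrome was found in *Polrmt* alone among the members, where 2 copies overlap at the start site, against 4.60% of all windows. The GABP core was found in *Tfam*, *Polrmt*, *Polg* and *Gabpa*, against 8.86% of all windows. No member's window held the ERR element (TNAAGGTCA; 1.28% of all windows), the E-box CACGTG (7.15%) or the CRE (TGACGTCA; 1.79%), on either strand. A match is a run of letters and not a binding site, and no binding was measured here.

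None of the 10 regulators was called, where 8.75% of all tested genes were, 2.96% higher and 5.78% lower in Tyr-H cells. These were 425 higher and 829 lower genes, against 544 and 580 after median ratio scaling and 611 and 494 after quantile normalization. Without the fold-change threshold 7 of the 10 changed, 6 of them lower in Tyr-H cells (*Ppargc1b*, *Nrf1*, *Gabpa*, *Tfb2m*, *Polrmt* and *Polg*) and *Esrra* higher. *Ppargc1a*, *Tfam* and *Tfb1m* did not pass the test. Of all tested genes 57.8% passed it, 39.9% lower and 17.9% higher, so 7 of 10 is near the background. The median log2 fold change of the members was -0.29, against -0.15 over all tested genes. It was -0.14, against -0.01, after median ratio scaling, where each library is divided by its median ratio to the geometric mean over the libraries. On that scale 4 members were lower (*Ppargc1b*, *Nrf1*, *Gabpa* and *Tfb2m*) and 3 higher (*Ppargc1a*, *Esrra* and *Tfb1m*), against 27.0% and 27.9% of the genes tested, 54.9% in all. The fall of *Ppargc1b* and *Tfb2m* and the rise of *Esrra* stood under every one of the 18 alternative settings, and so did the smaller falls of *Nrf1* and *Gabpa*.

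**Figure D1:**
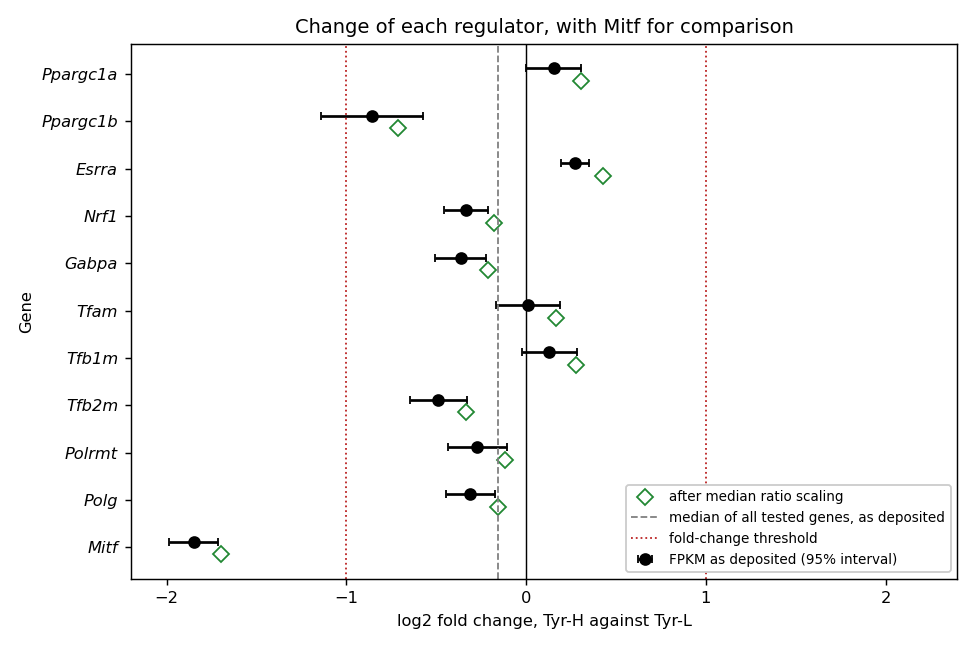
Log2 fold change, Tyr-H minus Tyr-L (x axis), of the 10 regulators and *Mitf* (y axis), as deposited with 95% intervals from limma (black points) and after median ratio scaling (green diamonds). The dashed line is the median of all tested genes at -0.15, the dotted lines are the fold-change threshold, and *Mitf* at -1.85 is the only gene beyond it.

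*Ppargc1a* encodes PGC-1-alpha and is on chromosome 5 (51454250 to 51567726 of GRCm38, minus strand). It had 20.5, 21.5 and 18.2 FPKM in the libraries of Tyr-L cells and 23.0, 23.1 and 20.8 FPKM in those of Tyr-H cells. The highest Tyr-L library lay above the lowest Tyr-H library, so the groups overlapped. The means were 20.1 ± 1.72 FPKM and 22.3 ± 1.29 FPKM (n = 3 each, SD; two-sided exact permutation p = 0.2), and the smallest p that this permutation test can give with 3 against 3 is 0.1. The log2 fold change was 0.15 (95% interval -0.00 to 0.31, limma adjusted p = 0.086), and in 6 of the 18 alternatives, among them median ratio scaling (0.31, adjusted p = 0.0042), the gene was higher in Tyr-H cells. It was 0.083 without Tyr-L replicate 3 (adjusted p = 0.29) and 0.059 after rescaling to a total of 1000000 FPKM (adjusted p = 0.53).

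*Mitf* fell in Tyr-H cells. It had 98.2, 86.7 and 86.6 FPKM in the libraries of Tyr-L cells and 26.8, 24.7 and 23.7 FPKM in those of Tyr-H cells. Every Tyr-H library was below every Tyr-L library, and the log2 fold change was -1.85 (SE 0.06, limma adjusted p = 1.0e-07). The ratio of *Ppargc1a* to *Mitf* within a library, which no scaling of libraries can change, was 0.222 ± 0.0225 in Tyr-L and 0.891 ± 0.0406 in Tyr-H cells (n = 3 each, SD; two-sided exact permutation p = 0.1), a 4.01-fold difference. Every Tyr-H library was above every Tyr-L library in this ratio, which like the other ratios given here was chosen after its values were seen. The tables give 1 value for a gene, so the isoforms of *Mitf* and *Ppargc1a* were not analysed here. For the MITF protein the paper reports that Tyr-H and Tyr-L cells did not differ, unlike the RNA here. It reports more tyrosinase, TYRP1 and TYRP2 in Tyr-H cells.

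*Ppargc1b* encodes PGC-1-beta, the coactivator related to PGC-1-alpha that shares many of its partners, and lies on the minus strand of chromosome 18 from 61298136 to 61400431. It had 2.88, 3.08 and 2.86 FPKM in the libraries of Tyr-L cells and 1.71, 1.72 and 1.33 FPKM in those of Tyr-H cells. It had the lowest level of the 10 genes in every library and the largest change, with every Tyr-H library below every Tyr-L library. Tyr-H minus Tyr-L was, on the log2 scale, -0.86 (95% interval -1.14 to -0.57, limma adjusted p = 0.00033), and the mean fell by 46.0%, with the fold-change threshold inside the interval. It stayed between -0.97 and -0.61 over the 18 alternatives and was called in none of them. The ratio of *Ppargc1b* to *Ppargc1a* was 0.147 ± 0.00928 in Tyr-L and, with no overlap, 0.0710 ± 0.00592 (n = 3 each, SD; two-sided exact permutation p = 0.1).

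**Figure D2:**
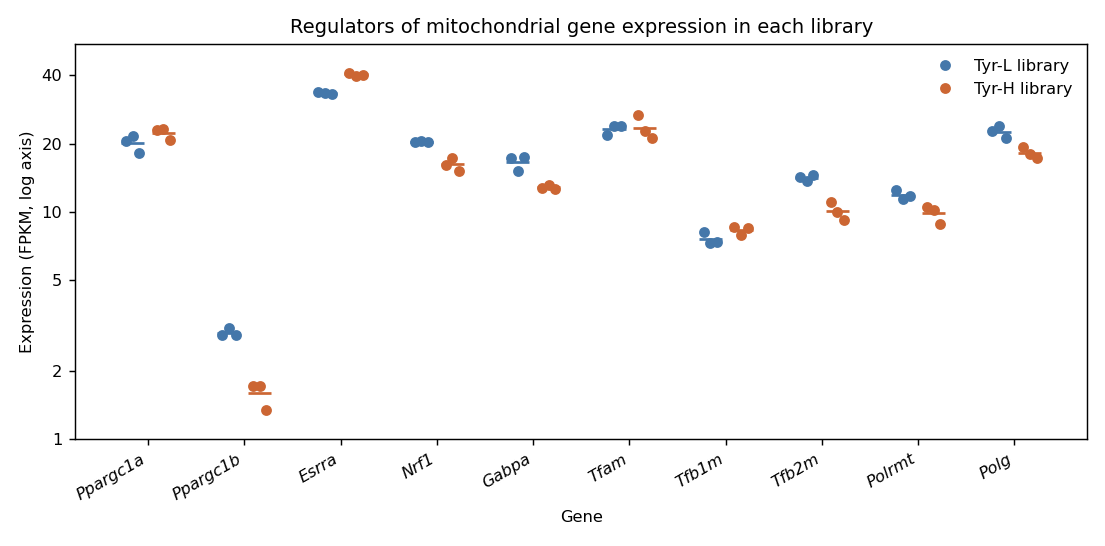
Expression in FPKM (log axis) of each regulator (x axis) in the 3 Tyr-L libraries (blue) and the 3 Tyr-H libraries (orange), with a bar at each mean. *Ppargc1b* lies lowest in both groups and *Esrra* highest, and the points of the 2 groups overlap for *Ppargc1a*, *Tfam* and *Tfb1m*.

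Of the 3 DNA-binding factors that the coactivators work through, the receptor gene rose and the other two fell. *Esrra*, which encodes ERR-alpha, lies on the minus strand of chromosome 19 from 6910977 to 6921813 and had the highest level of the members in both groups. It had 33.6, 33.3 and 33.2 FPKM in the libraries of Tyr-L cells and 41.0, 39.8 and 40.3 FPKM in those of Tyr-H cells, so the groups were apart by more than the spread in either. On the log2 scale the change was 0.27 (95% interval 0.20 to 0.35, limma adjusted p = 0.00011), 20.9% higher in the means. It was 0.43 after median ratio scaling and 0.18 after rescaling to a total of 1000000 FPKM. *Nrf1*, which encodes nuclear respiratory factor 1, lies on the plus strand of chromosome 6 from 30047988 to 30153458 and went from 20.3, 20.6 and 20.4 FPKM in the libraries of Tyr-L cells to 16.2, 17.4 and 15.1 FPKM in those of Tyr-H cells. The log2 fold change was -0.33 (SE 0.05, limma adjusted p = 0.00066), and -0.18 (adjusted p = 0.018) after median ratio scaling.

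*Gabpa*, on the plus strand of chromosome 16 from 84834925 to 84863779, encodes the DNA-binding subunit of GABP. It had 17.4, 15.1 and 17.4 FPKM in the libraries of Tyr-L cells and 12.8, 13.1 and 12.7 FPKM in those of Tyr-H cells, with no overlap. On the log2 scale the change was -0.36 (SE 0.06, limma adjusted p = 0.00085), and -0.21 (adjusted p = 0.015) after median ratio scaling. GABP works as a complex of this subunit with one encoded by *Gabpb1* or *Gabpb2*. *Gabpb2* was called lower in Tyr-H cells, from 11.8 ± 0.791 to 5.39 ± 0.570 FPKM (n = 3 each, SD), which is -1.12 on the log2 scale (SE 0.09, limma adjusted p = 7.4e-06). *Gabpb1*, named after its value was seen, had 11.5 ± 0.956 and 10.7 ± 0.214 FPKM (n = 3 each, SD) and did not pass the test. After median ratio scaling the log2 fold change of *Gabpb2* was -0.97, short of the threshold for a call.

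The ratio of *Esrra* to *Nrf1* within a library was 1.64 ± 0.0189 in Tyr-L and 2.50 ± 0.188 in Tyr-H cells (n = 3 each, SD; two-sided exact permutation p = 0.1). That of *Esrra* to *Ppargc1b* was 11.4 ± 0.480 and 25.8 ± 3.81 (n = 3 each, SD; two-sided exact permutation p = 0.1). In both ratios every Tyr-H library was above every Tyr-L library.

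**Figure D3:**
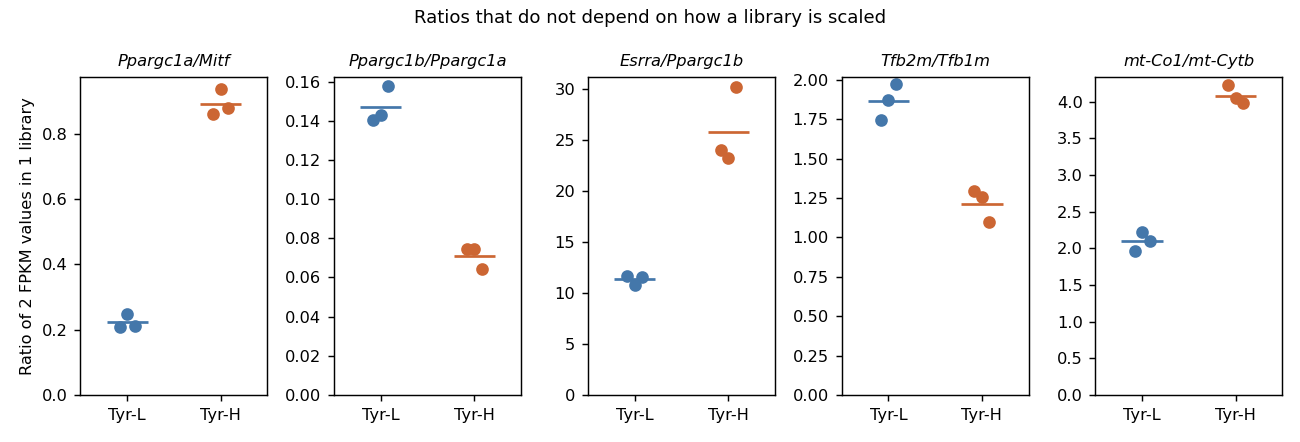
Ratios of 2 FPKM values within a library (y axes, from 0) for the 3 Tyr-L (blue) and 3 Tyr-H (orange) libraries, with a bar at each mean. The groups are apart in all 5 panels, with *Ppargc1a*/*Mitf* at 0.222 against 0.891 and *Ppargc1b*/*Ppargc1a* at 0.147 against 0.0710.

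*Tfam* packs mitochondrial DNA and opens its promoters, and lies on the minus strand of chromosome 10 from 71225464 to 71238280. It had 21.9, 23.8 and 24.0 FPKM in the libraries of Tyr-L cells and 26.7, 22.7 and 21.2 FPKM in those of Tyr-H cells. The Tyr-H libraries lay on both sides of the Tyr-L libraries. Tyr-H minus Tyr-L was, on the log2 scale, 0.01 (95% interval -0.17 to 0.19, limma adjusted p = 0.91), so a change beyond 0.19 in either direction lies outside the interval as deposited, and its sign turned with the scaling or with 1 library left out.

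The 2 TFB genes are related and descend from an RNA methyltransferase. *Tfb2m*, which serves as the initiation factor of POLRMT, lies on the minus strand of chromosome 1 from 179528055 to 179546267. It had 14.3, 13.7 and 14.5 FPKM in the libraries of Tyr-L cells and 11.1, 9.96 and 9.26 FPKM in those of Tyr-H cells. Every Tyr-H library was lower, and the log2 fold change was -0.49 (SE 0.07, limma adjusted p = 0.00027), the second largest of the members. *Tfb1m*, which methylates the RNA of the small mitochondrial ribosomal subunit, lies on the minus strand of chromosome 17 from 3519256 to 3557781. It had 8.16, 7.29 and 7.37 FPKM in the libraries of Tyr-L cells and 8.55, 7.94 and 8.46 FPKM in those of Tyr-H cells, with overlap between the groups (log2 fold change 0.13, 95% interval -0.02 to 0.28, limma adjusted p = 0.13). After median ratio scaling it was higher in Tyr-H cells (0.28, adjusted p = 0.0063), and after rescaling to a total of 1000000 FPKM it was at 0.035 (adjusted p = 0.70). The ratio of *Tfb2m* to *Tfb1m* was 1.87 ± 0.113 in Tyr-L and 1.21 ± 0.105 in Tyr-H libraries, with no overlap (n = 3 each, SD; two-sided exact permutation p = 0.1).

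*Polrmt*, the gene of the mitochondrial RNA polymerase, lies on the minus strand of chromosome 10 from 79736123 to 79746581. It had 12.5, 11.4 and 11.7 FPKM in the libraries of Tyr-L cells and 10.5, 10.2 and 8.88 FPKM in those of Tyr-H cells. The groups did not overlap, with a log2 fold change of -0.27 (SE 0.07, limma adjusted p = 0.010), but after median ratio scaling it was -0.12 (adjusted p = 0.19) and no longer passed. *Polg*, the catalytic subunit of the mitochondrial DNA polymerase, lies on the minus strand of chromosome 7 from 79446231 to 79466362. It had 22.8, 23.9 and 21.2 FPKM in the libraries of Tyr-L cells and 19.4, 18.0 and 17.2 FPKM in those of Tyr-H cells. The log2 fold change was -0.31 (SE 0.06, limma adjusted p = 0.0018), and -0.16 (adjusted p = 0.056) after median ratio scaling.

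In 6 of the 10 members (*Ppargc1b*, *Nrf1*, *Gabpa*, *Tfb2m*, *Polrmt* and *Polg*) every Tyr-H library was below every Tyr-L library, where 43.8% of all tested genes did so, and in *Esrra* alone every Tyr-H library was above, where 20.2% did. In either direction this was 7 of 10, against 64.0% of all tested genes. By mean FPKM the order in Tyr-L cells was *Esrra*, *Tfam*, *Polg*, *Nrf1*, *Ppargc1a*, *Gabpa*, *Tfb2m*, *Polrmt*, *Tfb1m* and *Ppargc1b*. The ranges of *Tfam* and *Polg* overlapped there, as did those of *Nrf1* and *Ppargc1a* and of *Polg* and *Ppargc1a*. In Tyr-H cells *Ppargc1a* took the third place, ahead of *Polg* and *Nrf1*, and the order was otherwise as in Tyr-L cells. There the ranges of *Tfam* and *Ppargc1a* overlapped, as did those of *Polg* and *Nrf1* and of *Tfb2m* and *Polrmt*. The annotated spans of *Esrra*, *Gabpa*, *Tfb1m* and *Polg* overlap *Trmt112*, *Atp5j*, *Tiam2* with *Cldn20*, and *Fanci*, all on the opposite strand. In the tables *Esrra* also shares its deposited locus with *Prdx5*, and *Ppargc1a* with *Gm42614*, *Gm42615* and *Gm43605*, same-strand genes that averaged under 0.2 FPKM in both groups. *Mir378a* lies within *Ppargc1b* and *Mir6990* within *Esrra*, both on the same strand, and neither has a value here. *Gm15480*, a pseudogene under 0.1 FPKM that shares the locus of *Tfb2m*, lies opposite it, as do *Gm25580* to *Nrf1*, *Gm25301* to *Ppargc1b* and *Gm42613* to *Ppargc1a*, which have no value here. The counting is not stated to use strand, so reads in those overlaps could be split.

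Across the 6 libraries the genes most like *Ppargc1a*, of 11025 others that averaged 1 FPKM or more, were *Rilpl1*, *Cd276*, *F3*, *Adipor1* and *Gps1*, with Pearson's r of log2 values from 0.95 to 0.98. Those most like *Tfam* were *Adck2*, *Ppp2r1a*, *Fbxl20*, *Asb3* and *Mnat1*, from 0.95 to 1.00. These r are descriptions over 6 libraries that share depth and scaling within each, taken as the highest of many.

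Of the other nuclear genes of the pathway, *Lonp1* was called higher and *Gabpb2*, *Mitf*, *Polg2* and *Dna2* were called lower in Tyr-H cells. The counts of each list stand against 17.9% higher and 39.9% lower over all tested genes (median -0.15), and against 27.9% and 27.0% after median ratio scaling (median -0.01). The list of partners of the coactivators, 22 of 25 tested, had 2 genes higher and 11 lower with a median log2 fold change of -0.41, and after median ratio scaling 3 higher and 10 lower (median -0.25). It holds *Pprc1*, the remaining gene of the PGC-1 family, which fell from 15.3 ± 0.385 to 11.7 ± 0.317 FPKM (n = 3 each, SD), and the receptor genes *Rxra* and *Rxrb*. *Rxra* fell from 23.8 ± 0.932 to 16.5 ± 0.565 FPKM and *Rxrb* rose from 14.6 ± 0.481 to 21.8 ± 1.48 FPKM (n = 3 each, SD). *Mef2c*, which encodes a factor that PGC-1-alpha binds, fell from 18.5 ± 1.57 to 9.40 ± 0.596 FPKM (n = 3 each, SD), a log2 fold change of -0.97 that was short of a call. The number of genes called in this list went from 0 to 3 over the 18 alternatives. It was 3 after rescaling to a total of 1000000 FPKM. *Pparg* had the largest fitted increase of this list with all 6 libraries and a pseudocount of 0.1, 0.0936 ± 0.0475 to 0.268 ± 0.240 FPKM (n = 3 each, SD), and did not pass the test. Tyr-H replicate 1 held 0.543 FPKM, and without it the log2 fold change of *Pparg* went from 0.76 to 0.26, below *Rxrb* (0.63) and *Thra* (0.56). A pseudocount of 1 FPKM gave 0.20, again below *Rxrb* (0.55) and *Thra* (0.39). *Thra* was named after its value was seen. *Pprc1*, *Rxra*, *Rxrb* and *Mef2c* were named after their values were seen.

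The list of genes that act on PGC-1 proteins or their transcription had 1 of 19 higher and 10 lower (median -0.25), and after median ratio scaling 4 higher and 8 lower (median -0.10). Besides *Mitf* it holds *Fbxw7*, which encodes a ubiquitin ligase subunit and fell from 7.77 ± 0.166 to 4.44 ± 0.209 FPKM (n = 3 each, SD). *Mybbp1a*, a repressor of PGC-1-alpha, was the single gene of the list to rise, from 94.9 ± 2.08 to 110 ± 1.86 FPKM (n = 3 each, SD). *Sirt1*, the deacetylase that acts on PGC-1-alpha, had 4.95 ± 0.754 and 5.06 ± 0.527 FPKM (n = 3 each, SD; two-sided exact permutation p = 0.9). *Fbxw7* and *Sirt1* were named after their values were seen.

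For the copying and repair of mitochondrial DNA 4 of 17 genes rose and 9 fell (median -0.20), and after median ratio scaling 4 were higher and 5 lower (median -0.05). *Polg2*, the accessory subunit that clamps POLG to DNA, fell from 2.16 ± 0.341 to 0.857 ± 0.132 FPKM (n = 3 each, SD), which is -1.24 on the log2 scale (SE 0.16, limma adjusted p = 0.00017). The ratio of *Polg2* to *Polg* was 0.0954 ± 0.0120 in Tyr-L and 0.0472 ± 0.00804 in Tyr-H libraries (n = 3 each, SD; two-sided exact permutation p = 0.1). A pseudocount of 1 FPKM put *Polg2* at -0.76, under the threshold. *Dna2*, a nuclease and helicase that also works in the nucleus, fell from 12.6 ± 0.339 to 4.75 ± 0.249 FPKM (n = 3 each, SD), which is -1.39 on the log2 scale (limma adjusted p = 4.5e-07). *Twnk*, the helicase of mitochondrial DNA, named after its value was seen, rose from 7.02 ± 0.291 to 7.87 ± 0.0977 FPKM (n = 3 each, SD). Its log2 fold change was 0.16, and it passed the test narrowly (limma adjusted p = 0.045).

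Among 10 genes for elongation, termination and the nucleoid 5 rose and 4 fell (median 0.02), and after median ratio scaling 5 were higher and 2 lower (median 0.17). *Lonp1*, the protease of the mitochondrial matrix that degrades TFAM, had 39.4, 39.9 and 40.2 FPKM in the libraries of Tyr-L cells and 90.3, 98.0 and 102 FPKM in those of Tyr-H cells. On the log2 scale the rise was 1.28 (SE 0.05, limma adjusted p = 1.5e-07). *Mterf1b*, one of 2 mouse copies of a termination factor gene between which reads could be split, fell from 1.94 ± 0.409 to 0.968 ± 0.297 FPKM (n = 3 each, SD), which is -0.95 on the log2 scale. It was called in 6 of the 18 alternatives, among them a pseudocount of 0.01 FPKM (-1.02), and a pseudocount of 1 FPKM gave -0.58. *Tefm*, the elongation factor of POLRMT, named after its value was seen, rose from 12.8 ± 1.06 to 15.4 ± 1.45 FPKM (n = 3 each, SD).

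Of 34 genes that cut, modify, stabilise or degrade mitochondrial RNA, 9 rose and 10 fell (median -0.01), and after median ratio scaling 16 were higher and 3 lower (median 0.15). The largest increase was that of *Mrm1*, a ribosomal RNA methyltransferase, from 7.36 ± 0.391 to 11.05 ± 0.298 FPKM (n = 3 each, SD). With all 6 libraries and a pseudocount of 0.1, the largest decrease was that of *Trmt61b*, a transfer RNA methyltransferase. It went from 1.88 ± 0.777 to 1.04 ± 0.121 FPKM (n = 3 each, SD), with overlapping groups. Its log2 fold change of -0.72 moved to -1.06 without Tyr-L replicate 1 and to -0.45, no longer past the adjusted p (0.17), without Tyr-L replicate 2. It passed in 8 of the 18 alternatives, and not after median ratio scaling (-0.57, adjusted p = 0.10). Of 14 genes for mitochondrial nucleotide supply 4 rose and 4 fell (median 0.08), and after median ratio scaling 7 were higher and 3 lower (median 0.23). *Cmpk2*, which encodes a mitochondrial nucleotide kinase that interferon induces, rose from 2.85 ± 0.547 to 5.74 ± 1.31 FPKM (n = 3 each, SD), which is 0.98 on the log2 scale. It was called in 6 of the 18 alternatives, among them median ratio scaling (1.13) and quantile normalization (1.15). *Rrm2*, a ribonucleotide reductase subunit, fell from 307 ± 2.66 to 184 ± 6.38 FPKM (n = 3 each, SD), which is -0.74 on the log2 scale.

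**Figure D4:**
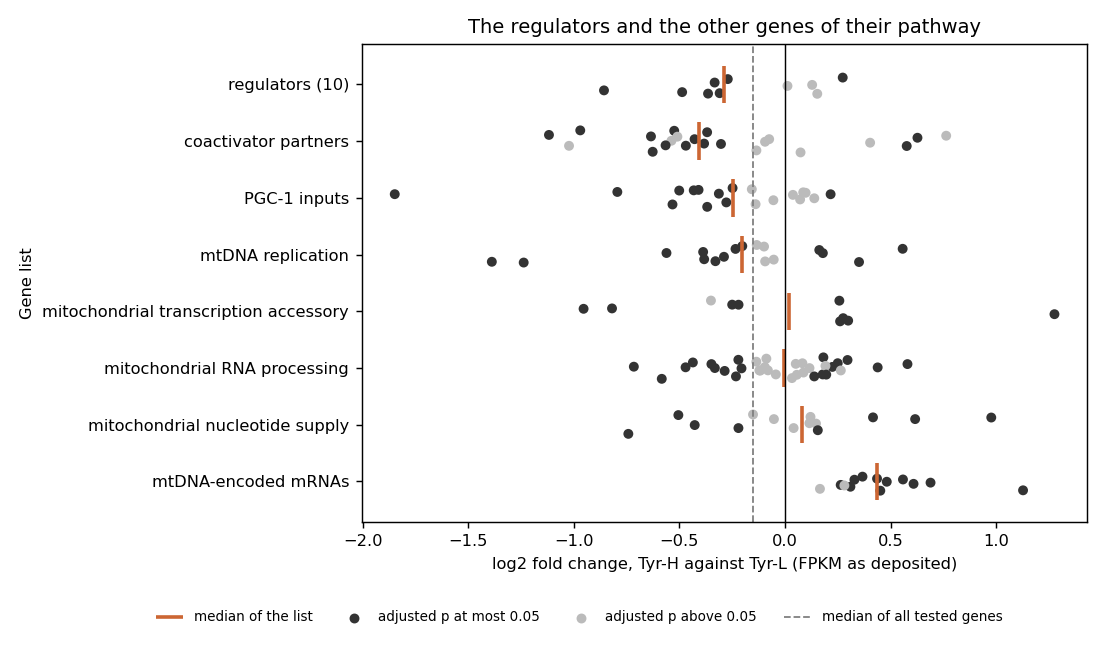
Log2 fold change, Tyr-H minus Tyr-L as deposited (x axis), of each tested gene of the 8 lists (y axis; vertical scatter is only for legibility). Dark points passed the adjusted p and grey points did not, orange bars are list medians and the dashed line is the median of all tested genes, and the mtDNA-encoded mRNAs are the list that lies wholly above 0.

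Of the 13 messenger RNAs encoded by mitochondrial DNA, which this apparatus makes, 11 rose in Tyr-H cells as deposited and none fell, with a median log2 fold change of 0.44 against -0.15 over all tested genes. Together they made up 8.73% to 9.26% of all FPKM in the libraries of Tyr-L cells and 12.9% to 13.5% in the Tyr-H libraries. *mt-Co1*, which encodes a core subunit of cytochrome oxidase, had 9342, 9363 and 9605 FPKM in the libraries of Tyr-L cells and 20198, 20258 and 21401 FPKM in those of Tyr-H cells. It was the single gene of the 13 that was called, at 1.13 on the log2 scale (SE 0.06, limma adjusted p = 8.3e-07).

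*mt-Co1* was followed by *mt-Co2* (log2 fold change 0.69), *mt-Co3* (0.61) and *mt-Nd6* (0.56), *mt-Nd1* (0.48), *mt-Atp8* (0.45) and *mt-Nd5* (0.44). Lower still were *mt-Atp6* (0.37), *mt-Nd4* (0.33), *mt-Nd3* (0.31) and *mt-Nd2* (0.26). *mt-Nd4l* (0.28) and *mt-Cytb* (0.17, limma adjusted p = 0.0504) did not pass the test. *mt-Nd3* and *mt-Atp8* passed it in 14 and 11 of the 18 alternatives. Without Tyr-H replicate 3 the value of *mt-Nd3* was 0.19 and that of *mt-Nd4l* 0.10. *mt-Nd3* did not pass without Tyr-L replicate 2 (adjusted p = 0.051) or 3 (adjusted p = 0.070), and *mt-Nd4l* passed without Tyr-L replicate 1 (0.41, adjusted p = 0.045). *mt-Atp8* did not pass without Tyr-L replicate 2 or 3 or Tyr-H replicate 2 or 3 (0.30 to 0.45, adjusted p = 0.054 to 0.081), and *mt-Cytb* passed without Tyr-H replicate 1 (0.20, adjusted p = 0.027). As deposited, the 3 largest increases were thus those of the 3 cytochrome oxidase subunits. The ratio of *mt-Co1* to *mt-Cytb* within a library was 2.10 ± 0.130 in Tyr-L and 4.09 ± 0.125 in Tyr-H cells (n = 3 each, SD; two-sided exact permutation p = 0.1), with no overlap. *mt-Nd4l* with *mt-Nd4*, *mt-Nd5* with *mt-Nd6*, and *mt-Atp6* with *mt-Atp8* and *mt-Co3* share a locus in the tables, so their values could be split between them. After quantile normalization, which forces the top ranks of all libraries to the same values, *mt-Co1* had a log2 fold change of 0 and *mt-Nd1*, *mt-Nd2*, *mt-Nd4* and *mt-Cytb* turned negative. Of these *mt-Nd1* (-0.12, adjusted p = 0.036) and *mt-Cytb* (-0.21, adjusted p = 0.0032) passed the test as lower on that scale. The largest increase after quantile normalization was that of *mt-Nd6* (0.42), ahead of *mt-Co3* (0.31). After median ratio scaling all 13 were higher, with a median of 0.59.

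**Figure D5:**
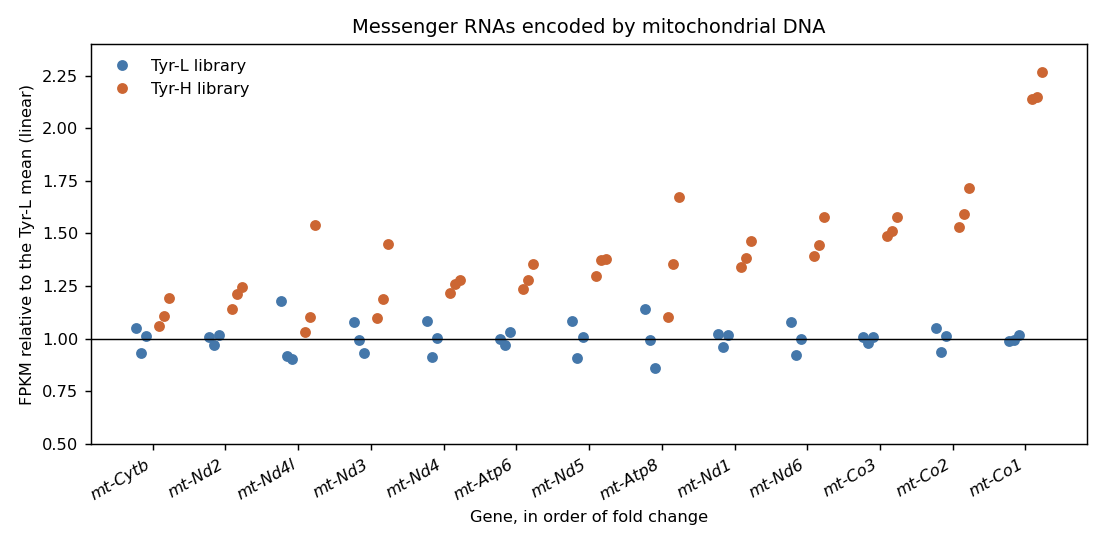
FPKM of each messenger RNA encoded by mitochondrial DNA relative to its Tyr-L mean (y axis, linear, from 0.5) in the 3 Tyr-L (blue) and 3 Tyr-H (orange) libraries, in order of fold change. The Tyr-H points of *mt-Co1* stand highest, and the groups overlap for *mt-Nd4l* and *mt-Atp8*.

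The ratio of *mt-Co1* to *Polrmt* within a library was 795 ± 41.8 in Tyr-L and 2108 ± 263 in Tyr-H cells (n = 3 each, SD; two-sided exact permutation p = 0.1). These data hold RNA levels alone, so the amount of mitochondrial DNA and of each protein was not analysed here.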

How the data were processed

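RNA of 3 Tyr-L and 3 Tyr-H B16 libraries was made into mRNA libraries and sequenced in pairs of 150 bp reads. Per gene, the authors deposited FPKM, and the submitters' processing notes name Trimmomatic, HISAT2 and GRCm38.p6. The annotation and quantifier are not given in the sources used here. No value is 0, and a gene not listed in a library was taken as 0 FPKM. The files hold no counts, so the depth was estimated from the commonest lowest value of genes with 1 annotated transcript, and covers counting error only.

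Groups and replicate numbers came from the labels. Genes averaging 0.1 FPKM or more were fitted on log2(FPKM + 0.1) with limma 3.58.1 in R 4.3.3 (trended eBayes, p-values adjusted by Benjamini-Hochberg). The thresholds follow the study's methods. Exact permutation tests, two-sided, used scipy 1.17.1, and figures matplotlib 3.10.9 in Python 3.11.15. On simulated data for this comparison, 184 of 188 changed genes tested were called in the right direction. Among the 14054 genes tested there, 3 unchanged genes were called. A call needs a log2 fold change of at least 1 in size, so how well smaller differences are found was not tested. Libraries of 1 group differed by a median of 0.0953 to 0.114 on the log2 scale, and those of different groups by 0.315 to 0.371.

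Coordinates and overlaps came from GENCODE on GRCm38, counted from 1, and promoters from RefSeq. The members, gene lists and motifs were chosen with earlier results of these data, and for the motifs the promoters, known. Named are all members, *Mitf*, the mtDNA-encoded mRNAs, called genes of each pathway list (its largest increase and decrease where fewer than 2 were called), the genes most like *Ppargc1a* and *Tfam*, and overlapping genes; others are marked where they stand. Alternatives changed the pseudocount, filter, scaling, variance estimate, pairing and libraries, 18 in all, with 2 of them chosen after seeing the data.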

Additional observations from a re-analysis of the deposited data

How the results depend on the processing

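Over 18 alternatives the count of regulators called stayed at 0 and the count past the adjusted p at 7 or 8. The number of all genes called went from 1254 to 388 with a pseudocount of 1 and to 640 with a mean of at least 1 FPKM, which tests fewer genes, and reached 1744 (457 higher, 1287 lower) after rescaling to a total of 1000000 FPKM. Leaving out 1 library at a time gave 1149 to 1279, with no regulator called and 7 or 8 past the adjusted p. The log2 fold change of *Tfam* reversed to -0.0828 after rescaling to a total of 1000000 FPKM, to -0.0142 after the same rescaling outside mitochondrial DNA (an alternative chosen after seeing the data), to -0.0299 without Tyr-L replicate 1 and to -0.0824 without Tyr-H replicate 1; with each library left out its range was -0.0824 to 0.0838. After quantile normalization that of *mt-Nd1* reversed to -0.12, *mt-Nd2* to -0.0335, *mt-Nd4* to -0.0346 and *mt-Cytb* to -0.21. *Ppargc1a* also passed the adjusted p without Tyr-L replicate 2 (0.20, adjusted p = 0.041) and without Tyr-H replicate 3 (0.20, adjusted p = 0.042). *Gabpb2* was at -0.95 after quantile normalization.

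Libraries with the same replicate number did not deviate together (r of 0.02, 0.01 and -0.08 over 14336 genes). Only Tyr-L replicate 2 and Tyr-H replicate 1 correlated best with their own number. With the replicate number as a block 1258 genes and no regulator (0) were called and 8 regulators passed the adjusted p, *Ppargc1a* (adjusted p = 0.029) being added. The causes were not tested. Depth limits *Ppargc1b* most, with a counting error of about 10.3% in its thinnest library.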
